A study of Mus musculus with 6 samples.

Results

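The early-response genes of the Egr, Nr4a and Ier families were followed in 3T3 cells after transfection with GapmeR Ntep. The group holds 10 genes, Egr1 to Egr4, Nr4a1 to Nr4a3, Ier2, Ier3 and Ier5, out of 35527 gene names on the array. They are read by 12 of its 55681 probes, taken by gene name. The genes were chosen with results of this same comparison known, so their differences and calls below describe the data and are not independent evidence. 3T3 cells, an established line of mouse fibroblasts, received GapmeR Ntep or, as control, GapmeR control, at 50 nM per the labels and for 48 h, and were otherwise grown alike, in DMEM with fetal bovine serum and antibiotics. GapmeRs are antisense oligonucleotides whose pairing with a transcript, here the long non-coding RNA Ntep, recruits RNase H to cut it. Each of 3 independent experiments gave 1 array per group, 6 arrays in all. Only 1 GapmeR sequence was used against Ntep, so effects of its target and of its sequence cannot be told apart.

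Immediate early genes are transcribed within minutes of a growth factor, stress or calcium signal, without new protein synthesis, and their mRNAs usually decay quickly. Egr proteins are zinc finger transcription factors that bind GC-rich sites, Nr4a proteins are orphan nuclear receptors, and of the Ier proteins, Ier2 and Ier5 are related nuclear proteins while Ier3 is not of their kind. In fibroblasts most of them are known for their response to serum, through ERK signalling, serum response factor (SRF) and CREB.

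On each array 43.7% to 53.3% of all probes exceeded background clearly by the scanner's call, here termed well above background, and no spot was saturated. The probe for Ntep, named A630089N07Rik in the files, read 472, 91.5 and 226 in experiments 1, 2 and 3 where the label was GapmeR Ntep. The GapmeR control arrays of the same experiments read 271, 272 and 361. In experiment 1 the Ntep signal went against the label, and the groups overlapped, so every direction below is that of the label. Of the fibroblast markers, 8 of 11 were well above background on all arrays, while Fap was so on none. Macrophage markers were split, 4 of 7 tested higher and 3 lower (Aif1, Cd74 and Lyz2), with only Cd68 past the adjusted threshold. Summed, they read 43677 to 75923 under the label GapmeR Ntep and 22432 to 28364 under control. A few bright probes set these sums, Itgam alone reading 45777, 19443 and 30885 against 14655, 10652 and 12952, so they do not stand for the whole list. Ptprc, Emr1 and Mrc1 were well above background on no array. Endothelial markers summed to 768 to 846 against 599 to 675, with 4 of 6 well above background on no array. Epithelial markers summed to 5985 to 7735 against 4441 to 6979. The summed fibroblast markers were lower, at 499572 to 652690 against 728557 to 802259. The part of these shifts in the results below was not tested. A bulk signal does not distinguish fewer cells of a type from less RNA per cell.

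Signals are scanner intensities, background subtracted by the authors and then brought to a common distribution by quantile normalization, with a floor of 20. A probe was tested, with limma, if its mean in at least 1 group was 50 or more, which held for 10 of the 12 member probes and for 30990 probes in all. The probes for Egr4 and Nr4a3 did not. Both Egr1 and Egr2 rose on the arrays labelled GapmeR Ntep, and Egr3 was near background. No other tested member passed the adjusted threshold below. Among them Nr4a1 and the brighter Ier5 probe had an unadjusted limma p of 0.0105 and 0.0186. After Benjamini-Hochberg adjustment across all tested probes, 2 of the 10 tested member probes were higher with an adjusted p under 0.05. Of all tested probes 2.09% were. By the study's cutoffs, a 2-fold change and an unadjusted p of 0.01, both were higher too, against 3.08% of all tested probes. The p used here was that of limma. With the methods' own test in place of limma, only 1 of the 10 tested member probes met these cutoffs. The lowest signal labelled GapmeR Ntep lay above the highest control signal for 5 of the 10, against 17.0% of all. In all 3 experiments 8 of the 10 were higher, against 32.4% of all. Because the members were selected on this comparison, nothing is read from these shares. Signals of different probes are not compared with each other.

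**Figure D1:**
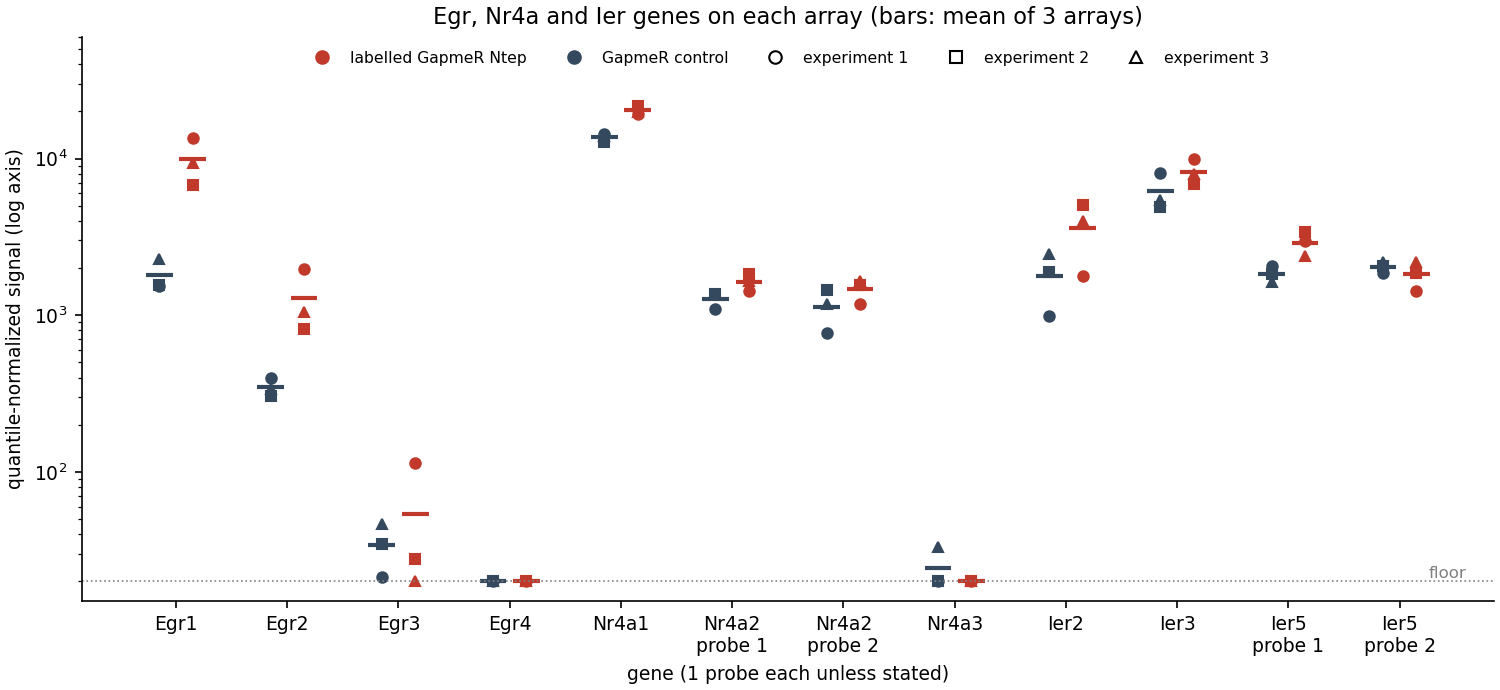
Quantile-normalized signal (log axis) of the 12 member probes on each of the 6 arrays, with the shape of a point giving the experiment, its colour the label, and a bar the mean of 3 arrays. Egr1 and Egr2 stand apart by label, whereas Egr4 and Nr4a3 lie at or near the floor of 20.

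Egr1, an early zinc finger factor induced by serum and stress, was measured by 1 probe on chromosome 18, bases 35024395 to 35024454 of mm9, the build of all probe positions here. In experiments 1, 2 and 3 it read 13448, 6773 and 9407 under the label GapmeR Ntep, against 1529.5, 1569 and 2294 under control. The lowest of the first group was far above the highest of the second. Group means were 9876 ± 3362 and 1798 ± 431 (SD, n = 3 each), a 5.38-fold rise (log2 2.43, SE 0.31, limma adjusted p = 0.0255). Within experiments the fold change was 8.79, 4.32 and 4.10, largest in experiment 1. The highest array labelled GapmeR Ntep was 1.99 times the lowest of that label.

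Egr2, also called Krox20 and best known for its role in Schwann cells and hindbrain, had 1 probe at bases 67004798 to 67004857 of chromosome 10. It read 1983, 814 and 1053 under the label GapmeR Ntep and 397, 306 and 339.6 on the control arrays. The groups did not overlap, and experiment 1 was again the highest. Means were 1283 ± 618 and 348 ± 46.0 (SD, n = 3 each), a 3.45-fold rise (log2 1.79, SE 0.35, limma adjusted p = 0.0467). The control arrays agreed within 1.30 times of each other, while those labelled GapmeR Ntep spread over 2.44 times.

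Leaving out 1 array changed the calls over all probes, so losses where few or no probes passed say little of single genes. Of all probes, 141, 0 and 5 passed without control replicates 1, 2 and 3, and 540, 1403 and 0 without GapmeR Ntep replicates 1, 2 and 3, against 1642. Of the member probes, 3 to 5 had an unadjusted p under 0.05 in each of these limma fits, for which the share of all probes is not given. With all 6 arrays 24.9% of all tested genes had such a p, so nothing is read from these counts. Egr1 kept its direction and size, log2 2.18 to 2.67, when any 1 array was left out. Its adjusted p was 0.0613, 0.130 and 0.0886 when control replicates 1, 2 and 3 were omitted in turn, and 0.0989 without GapmeR Ntep replicate 3. For Egr2 the log2 difference ran from 1.42, without GapmeR Ntep replicate 1, its highest array, to 2.06. Its adjusted p was 0.0572 without GapmeR Ntep replicate 1, 0.129 without Ntep replicate 3, and 0.0808, 0.179 and 0.160 without control replicates 1, 2 and 3. Both calls held without GapmeR Ntep replicate 2, and that of Egr1 also without Ntep replicate 1.

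The other family members were dim. Egr3, a paralog with a known part in muscle spindles and lymphocytes, read 114, 27.8 and 20 against 21.3, 34.8 and 46.3, from a probe at bases 70479222 to 70479281 of chromosome 14. Of these 6 arrays only the one labelled GapmeR Ntep of experiment 1 was well above background. Its differences within experiments, log2 2.42, -0.32 and -1.21, ran in both directions, and no fold change is given. Egr4, studied mainly in neurons and germ cells, was at the floor of 20 on all 6 arrays, from a probe at bases 85461153 to 85461212 of chromosome 6.

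Nr4a1, also called Nur77 and linked to apoptosis and stress, had 1 probe at bases 101105071 to 101105130 of chromosome 15. It read 19229, 21797 and 19919.9 on the arrays labelled GapmeR Ntep and 14317, 12825 and 13912 on the control arrays. The groups were tight and did not overlap. Means were 20315.5 ± 1329 and 13685 ± 772 (SD, n = 3 each), 1.48 times as high, and the adjusted p of 0.0894 missed the threshold (log2 0.57, SE 0.16). In the 3 experiments the fold was 1.34, 1.70 and 1.43.

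Nr4a2, or Nurr1, a factor needed for dopamine neurons, had a pair of probes on chromosome 2. The brighter one, at bases 56959637 to 56959696, read 1424, 1845 and 1653 against 1100.1, 1362 and 1371. The 2 groups lay next to each other without overlap, and the difference of log2 0.36 (SE 0.19) had an adjusted p of 0.297. The second probe, at bases 56960699 to 56960758, read 1181, 1549 and 1664 against 769, 1448 and 1181. There the groups overlapped, and the difference of log2 0.40 (SE 0.29) was of like size, with an adjusted p of 0.431.

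Nr4a3, or Nor1, the third receptor of the family, was not well above background on any array. Its probe, given at bases 48080690 to 48083876 of chromosome 4, is spotted 10 times per array. The averaged signal was at the floor everywhere except GapmeR control replicate 3, where it was 33.3. A single spot of 176, marked as an outlier by the scanner software, set that value, with the next highest of the 10 at 13.7.

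Ier2, a nuclear early-response protein, had a probe at bases 87186214 to 87186273 of chromosome 8. It read 1787, 5028 and 4007 on the arrays labelled GapmeR Ntep and 987, 1881 and 2464 on the control arrays. The groups overlapped across experiments, since both arrays of experiment 1 were the lowest of their label, while within each experiment the labelled array was 1.81, 2.67 and 1.63 times its control. Means were 3607 ± 1657 and 1777 ± 744 (SD, n = 3 each). On the log2 scale they differed by 0.99 (SE 0.51), with an adjusted p of 0.285 unpaired and 0.0515 with the experiment as a block.

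Ier3, or IEX-1, an early gene tied to survival under stress, had a probe at bases 35959528 to 35959587 of chromosome 17. It read 9940.4, 6901.5 and 7941 against 8152, 4917 and 5466, with overlap between groups. Folds within experiments ran from 1.22 to 1.45, and the difference of log2 0.44 (SE 0.26) had an adjusted p of 0.353. Here experiment 1 had the highest arrays of both labels, opposite to Ier2.

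Ier5, a regulator of heat shock factor, was the one gene whose probes disagreed. The brighter probe, at bases 156945765 to 156945824 of chromosome 1, read 2976, 3376 and 2383 against 2067, 1839 and 1634. These groups did not overlap, and the difference was log2 0.65 (SE 0.20, adjusted p = 0.119). The second probe, 2235 bases away at bases 156943530 to 156943589, read 1437, 1869 and 2178 against 1857, 2048 and 2174. These groups overlapped, and the difference was log2 -0.17 (SE 0.21, adjusted p = 0.648).

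As levels of different probes are not comparable, the ratio of a gene's 2 probes was followed from array to array. For Ier5 it was 2.07, 1.81 and 1.09 under the label GapmeR Ntep and 1.11, 0.898 and 0.752 under control. The ratio was higher on the labelled array in every experiment, although 1.09 and 1.11 overlap between groups. Whether the 2 probes changed unequally was not tested, and the ratio does not tell which of them follows the transcript. For Nr4a2 the ratio was 1.21, 1.19 and 0.994 against 1.43, 0.940 and 1.16, with no common direction.

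**Figure D2:**
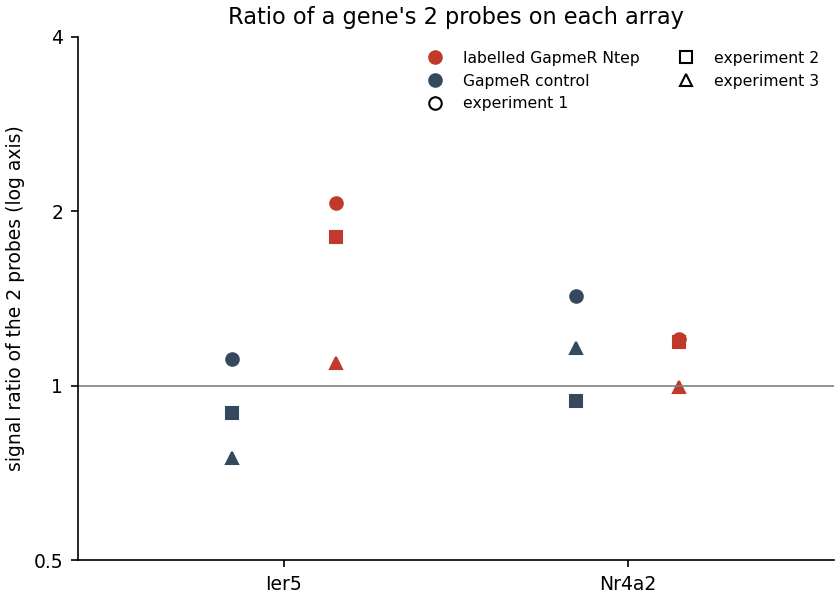
Ratio of the brighter to the second probe (log axis) for Ier5 and Nr4a2 on each array, coloured by label and shaped by experiment. The Ier5 ratio reached 2.07 under GapmeR Ntep and at most 1.11 under control, while the Nr4a2 ratios of both labels intermingled.

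Across the 10 tested probes, 9, 8 and 9 were higher in experiments 1, 2 and 3, where 51.7%, 53.7% and 52.3% of all tested probes were. The members were chosen on this comparison, so nothing is read from these counts. Nr4a2 and Ier5 enter with 2 probes each. Egr3 was tested only through its mean under the label GapmeR Ntep, 53.8 against 34.1 under control. Experiment 1 gave the largest difference for 4 of the 10, Egr1, Egr2, the second probe of Nr4a2 and the dim Egr3, against 32.8% of all probes. Experiment 2 gave it for Nr4a1, the brighter probes of Nr4a2 and Ier5, and Ier2, again 4 of the 10, against 38.5%. These 2 shares are near those of all probes. Egr1 and Egr2 thus differed most in the experiment in which the Ntep probe read higher on the labelled array, and Nr4a1 and Ier2 in the one in which it read lowest. With 3 experiments no relation to the Ntep signal can be tested.

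**Figure D3:**
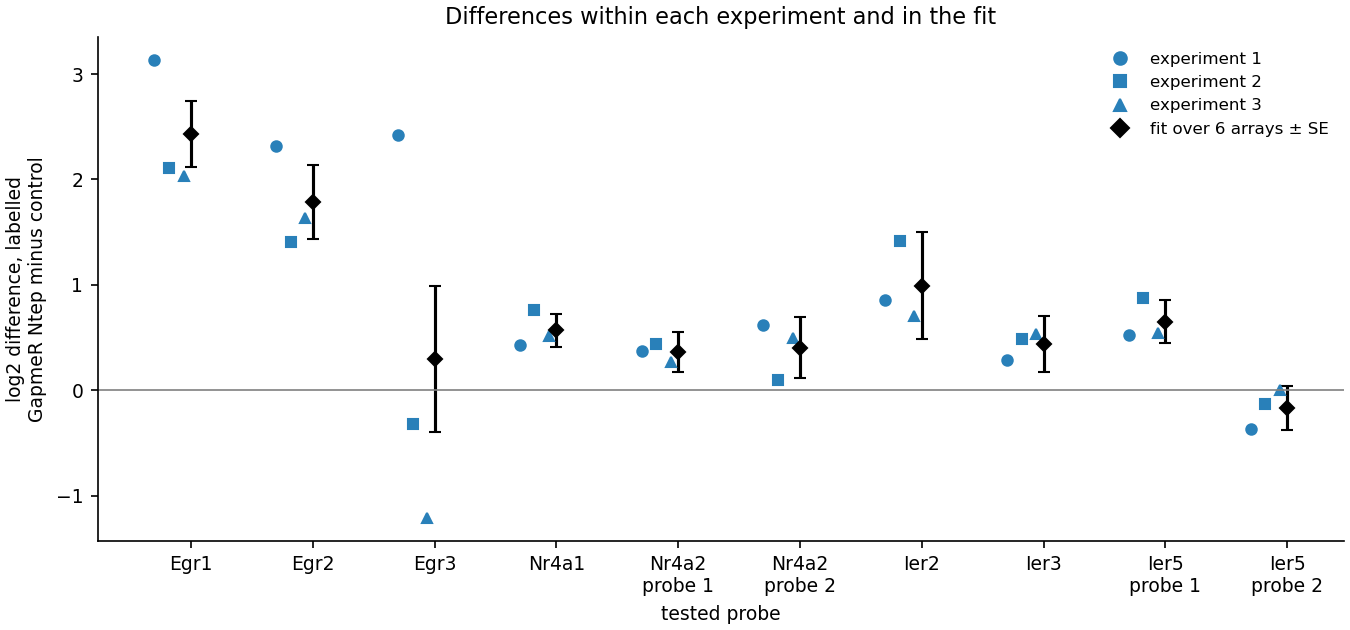
Log2 difference between the array labelled GapmeR Ntep and its control within each experiment (blue shapes), and the limma estimate over 6 arrays with its standard error (black diamonds), for the 10 tested member probes. The Egr1 estimate is 2.43 and that of Egr2 1.79, and the 3 Egr3 values lie on both sides of 0.

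Profiles over the 6 arrays were compared with that of Egr1, each centred on its own mean log2 signal, for the 16709 other genes well above background on all arrays. The measure was the root mean square difference over the 6 arrays. Closest was Fosb, an AP-1 subunit and itself an early gene, at 0.15. The linker histone gene Hist1h1c followed at 0.17, then the histone gene Hist1h2bm and Scand3, each at 0.21, and an unannotated transcript at 0.23. Egr2 lay at 0.41, with 33 genes closer to Egr1, and every other member at 1.00 or more. Fosb read 1347, 692 and 1170.5 against 190.0, 160 and 217, with the order of experiments seen for Egr1 under GapmeR Ntep.

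Of a list of 50 other early-response genes, 47 were tested at their brightest probe. This list, like those below, was drawn up with earlier results of these data known. Of the 47, 38 were higher under the label GapmeR Ntep (median log2 difference 0.69), where 54.3% of 22094 tested genes were higher and the median was 0.06. After adjustment 3 rose and 0 fell, against 1.98% and 3.17% of all genes, and 12 of the 47 had an unadjusted p under 0.05, where 24.9% of all genes did. The 3 were Fosb (log2 2.46, SE 0.30, adjusted p = 0.0243), the AP-1 subunit Jun (1.91, SE 0.30, 0.0320) and the clock gene Per1 (1.12, SE 0.18, 0.0335). Jun read 16715, 9931 and 13195 against 4797, 2806 and 3046, and Per1 46693, 36714 and 36904 against 20181, 17178 and 17603, both without overlap. The block raised calls throughout, to 13.9% of all genes, 6.49% higher and 7.4% lower. With it 13 of the 47 passed. Among them 12 rose, including the stress factor Atf3, the phosphatases Dusp1 and Dusp4, Fosl1, Klf6, Maff and Rcan1, and 1 fell, the flow-responsive factor Klf2. Without GapmeR Ntep replicate 1, 1 passed. None passed without any one of the control replicates or without GapmeR Ntep replicate 3, where 7 to 24 had an unadjusted p under 0.05 by limma. On those subsets 0.468% of all genes or fewer passed, and the share of all genes with an unadjusted p under 0.05 is not given.

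Fos, the best known early gene, was looked up after its values had been seen. It read 22861, 1871 and 2245 on the arrays labelled GapmeR Ntep and 873, 1963 and 1738 on the control arrays. A single spot of 203522 among 10 made the first value, where the next highest spot was 1450 before normalization. With outlier spots left out the difference fell from log2 1.67 to 0.43 (SE 0.35), so the data give no rise of Fos beyond its spread.

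Regulators upstream of these genes, kinases of the ERK pathway and the SRF, ETS and CREB factors, showed no common direction. Of 29 listed, 28 were tested, 14 were higher (54.3% of all genes) and 14 lower, and the median was log2 0.01. After adjustment 1 rose and 1 fell, 3.57% each, against 1.98% and 3.17% of all genes. By limma 6 of the 28 had an unadjusted p under 0.05, where 24.9% of all genes did. The 2 that passed are described singly and do not set the list apart from all genes. Crem, a CREB family member whose inducible forms repress cyclic AMP targets, rose from 284 ± 40.1 to 746 ± 229 (log2 1.35, SE 0.27, adjusted p = 0.0480). Its dimmer probe differed by only 0.12 (SE 0.30). Rps6ka5, or MSK1, a kinase that phosphorylates CREB and histone H3 at early gene promoters, fell from 1319 ± 190.3 to 312 ± 127 (log2 -2.16, SE 0.35, adjusted p = 0.0335). Its signal was 181, 434 and 321 against 1100.3, 1405 and 1451, so it was lower in all 3 experiments. Crtc1 passed as well, and was lower, with experiments as blocks, where 13.9% of all genes passed. This CREB coactivator was named after its value had been seen. Both calls were lost without the filter on low values (Crem adjusted p = 0.114, Rps6ka5 0.0904), with the methods' t-test (0.105 and 0.0881) and with the variance prior from all probes (0.0663 and 0.0527). Crem was also lost without GapmeR Ntep replicate 1 (0.0821), with 75th percentile scaling (0.0518) and with a floor of 5 (0.0501). Neither passed on the subsets without a control replicate or without GapmeR Ntep replicate 3, on which few or no probes passed.

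Corepressors, dimer partners and paralogs of the members were few. All 7 were tested, 3 were higher and 4 lower, with a median of log2 -0.07 and 0 past the adjusted threshold by limma, 2 of the 7 with an unadjusted p under 0.05 (24.9% of all genes). The largest differences were those of Ier3ip1, named as an interactor of Ier3, at log2 -1.10 (SE 0.25, adjusted p = 0.0621), and of the retinoid receptors Rxrb at -0.80 (SE 0.33, 0.204) and Rxra at 0.66 (SE 0.33, 0.271), partners of Nr4a1 and Nr4a2. Ier3ip1 read 27737, 42113 and 25749.7 against 78800, 61575 and 60573. Its second probe differed by -0.79 (SE 0.18).

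Genes known as Egr1 targets did not move together. Of 17 listed, 15 were tested and 10 were higher (54.3% of all genes), with a median of log2 0.10 (0.64 without GapmeR control replicate 1). Without pairing 0 passed after adjustment by limma, and 5 of the 15 had an unadjusted p under 0.05 (24.9% of all genes). With experiments as blocks, where 13.9% of all genes passed, 3 of the 15 did, Cd44, Gdf15 and the growth factor Pdgfa, named after its value had been seen. The largest differences were those of the adhesion receptor Cd44 (log2 1.37, SE 0.44, adjusted p = 0.125), the stress cytokine Gdf15 (1.34, SE 0.42, 0.122) and the angiogenic factor Vegfa (0.88, SE 0.32, 0.159). Probes of 1 gene disagreed here too. The 3 dimmer Cd44 probes differed by -0.02, 0.61 and 1.02, and the dimmer Vegfa probe by 1.96 with an adjusted p of 0.0433.

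**Figure D4:**
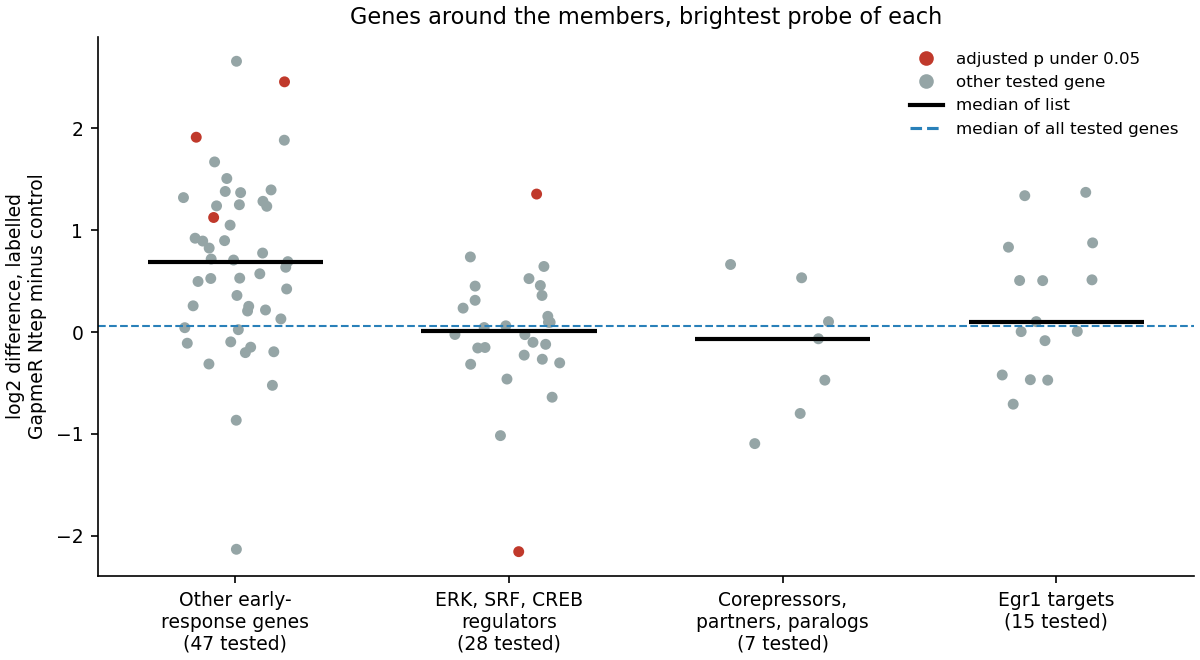
Log2 difference of each tested gene of the 4 lists at its brightest probe, with genes of adjusted p under 0.05 in red, the list median as a black bar and the median of all tested genes as a dashed line. The median of the early-response genes is 0.69, and those of the other lists are 0.01, -0.07 and 0.10.

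Promoter sequences of RefSeq (GRCm38.p6), from 250 bases before to 50 after a start of transcription, were searched for sites of factors that act on early genes. Of the members, 7 were matched by symbol, with 11 promoters, 5 of them of Egr2. Egr1, Egr3 and Ier2 were not analysed here. The CRE core TGACG, bound by CREB family factors, occurred on either strand in 5 of the 7, Egr2, Egr4, Nr4a1, Nr4a2 and Nr4a3, where 23% of 27025 genes and 20.8% of 32851 promoters held it. The CArG box of SRF was found in Egr2 (1.81% of genes) and the ETS core CCGGAA in Egr2 and Nr4a1 (16.7%). Nr4a1 held the Egr site GCGGGGGCG (3.31%) and Nr4a2 TATAAA (15.7%). The other Egr site GCGTGGGCG (0.707%), the full CRE TGACGTCA (2.03%), which contains the core, and the Nr4a site AAAGGTCA (1.7%) were in none of the 7. A match is a run of letters and no evidence of binding.

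Egr2, the member with a rise and a promoter in the table, is shown by the 30 bases that begin 75 bases before its start site at base 67537869 of chromosome 10. Capitals mark the CArG box and, to its right, a CRE core on the opposite strand (chr10:67537794-67537823, plus strand, GRCm38.p6).
Egr2: agtCCATATATGGgcagcgaCGTCAcgggt

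The stretches of Nr4a1 (chr15:101266596-101266845, plus strand) and Nr4a2 (chr2:57124004-57124253, minus strand) are shown because both carried repeated CRE cores while their signals differed by 1.48-fold or less. That of Ier3 (chr17:35821463-35821712, plus strand) is shown as one without any of the motifs. Each is written 5′ to 3′ on the gene's strand and ends at the base before the start. Capitals mark CRE cores in either orientation, the ETS core and the Egr site as its complement in Nr4a1, and the complement of TATAAA in Nr4a2.
Nr4a1: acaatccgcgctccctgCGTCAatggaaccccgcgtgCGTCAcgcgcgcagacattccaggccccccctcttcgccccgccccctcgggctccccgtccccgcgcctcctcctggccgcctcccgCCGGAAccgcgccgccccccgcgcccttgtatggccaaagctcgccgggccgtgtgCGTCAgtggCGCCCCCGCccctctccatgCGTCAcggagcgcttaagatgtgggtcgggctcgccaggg
Nr4a2: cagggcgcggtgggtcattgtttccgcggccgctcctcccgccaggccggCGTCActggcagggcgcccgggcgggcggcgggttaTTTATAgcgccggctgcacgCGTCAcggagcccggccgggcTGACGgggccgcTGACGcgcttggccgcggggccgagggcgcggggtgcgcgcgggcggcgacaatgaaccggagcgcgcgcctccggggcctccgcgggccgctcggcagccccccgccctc
Ier3: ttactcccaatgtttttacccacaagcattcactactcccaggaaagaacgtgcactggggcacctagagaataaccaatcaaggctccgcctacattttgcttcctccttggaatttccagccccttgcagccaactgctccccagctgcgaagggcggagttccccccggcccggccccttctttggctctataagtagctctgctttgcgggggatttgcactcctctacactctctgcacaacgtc

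Beside the signals, Nr4a1 held 4 CRE cores in the upstream stretch, at 233, 213, 69 and 40 bases before the start, with a signal 1.48 times control. Egr2 held 2 upstream of the start at base 67537869, at 111 and 55 bases, and rose 3.45-fold. Only the core at 55 bases lies in the stretch printed above. Counted from another annotated Egr2 start the 2 cores lay at 172 and 116 bases, and some Egr2 windows held none. Nr4a2 held 4, with a log2 difference of 0.36 at its brighter probe. Nr4a3 held 4 and Egr4 2, both not well above background, so they show no response either way. Ier3 and Ier5 held none, with log2 differences of 0.44 and, at the brighter Ier5 probe, 0.65. With 7 promoters no relation was tested.

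**Figure D5:**
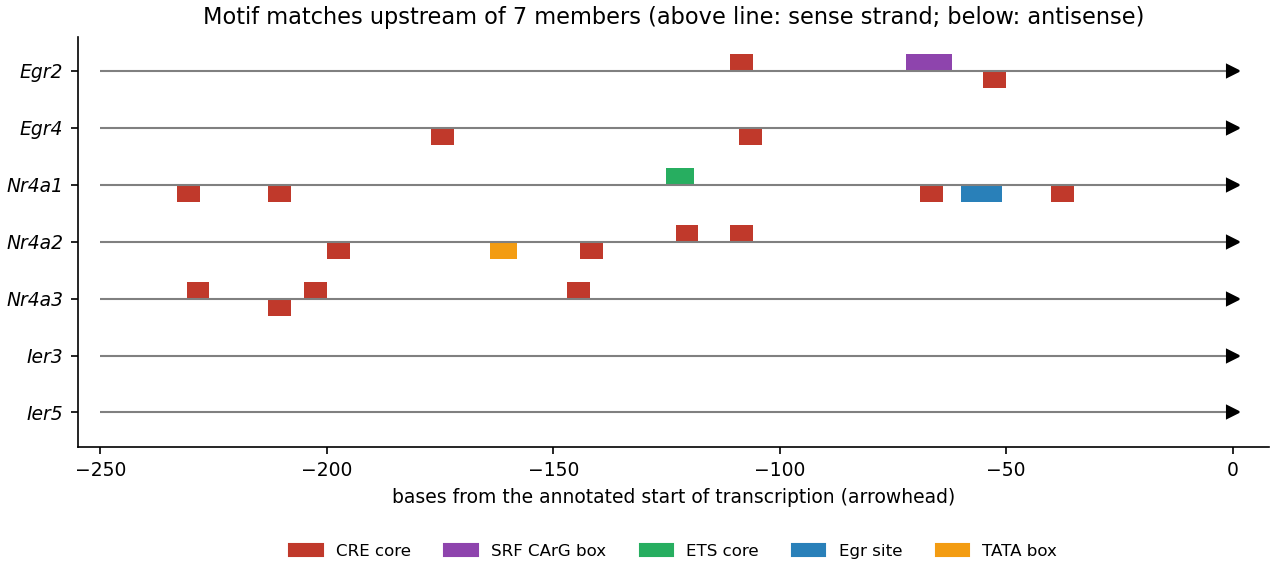
Motif matches in the 250 bases upstream of the start of transcription of 7 members, drawn to scale (for Egr2, of its 5 windows, the one printed in part), above the line for the gene's strand and below it for the other. CRE cores occur in Egr2, Egr4 and the 3 Nr4a genes, and no motif searched occurs in Ier3 or Ier5.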

How the data were processed

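RNA of 6 cultures of 3T3 cells was hybridised to 6 one-colour Agilent mouse arrays. The authors deposited the scanner intensities of each array as Agilent Feature Extraction (version 10.7.3.1, per the labels) gave them, background subtracted on a linear scale, together with a table of quantile-normalized intensities with values under 20 set to 20, which served as an alternative. Here, 59305 spots per array were averaged to 55681 probes, quantile normalized, floored at 20 and set to log2. Those reaching a mean of 50 in either group were tested with limma 3.58.1 (R 4.3.3), unpaired and two-sided, with Benjamini-Hochberg adjustment over all of them. The steps were also run on simulated arrays with independent noise and large changes in brighter probes only. That run does not bear on small changes or on paired arrays.

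Arrays were paired by the culture days the study gives. Deviations from the group means correlated at 0.466, 0.300 and 0.254 within experiments 1 to 3, and at -0.327 to 0.126 otherwise, so a fit with experiments as blocks was run too. Its results are given where they change a call of a named gene or list. The sources differ on the array format and on the dose, which is 50 nM in the labels and 2 × 50 nM in a supplementary list. Replicate numbers equal experiment numbers. An exact permutation test of 3 against 3 arrays cannot go below 0.1, and the number of arrays limits the precision.

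Members and lists were chosen with earlier results of these data known. The brightest probe, by mean log2 signal, stands for a gene in lists. Named were all members, Ntep, the 5 genes most like Egr1, and per list up to 5 genes with adjusted p under 0.05 or otherwise the 3 largest differences. Alternatives were 75th percentile scaling, normexp, the authors' table, floors of 5 and 50, no filter, only probes well above background, outlier spots left out, blocks, the methods' t-test and each array left out. After seeing the data, the median of spots and a variance prior from all probes were added. Probes carry the mm9 positions listed in the files, without an annotation of that build, so exons and introns are not stated. Promoters come from a table of another build, GRCm38.p6, and were not set against probe positions. Motif searches used Python 3.11.15.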

Additional observations from a re-analysis of the deposited data

How the results depend on the processing

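Egr1 and Egr2 were higher in all 18 alternatives, at log2 2.18 to 2.67 and 1.42 to 2.06. Member probes with an adjusted p under 0.05 numbered 2 in the report. They numbered 0 without a filter on low values and with the methods' t-test, where 564 and 285 of all probes passed, against 1642. In both settings 4 member probes had an unadjusted p under 0.05. The share of all probes is not given there, so nothing is read from this count. With 1 array left out 0 to 2 member probes passed, and otherwise 2 or 3. Nr4a1 joined with normexp (adjusted p = 0.0321), a floor of 50 (0.0494) and the variance prior from all probes (0.0324), where Egr2 was lost (0.0738). The replicate block kept both calls (0.0319 and 0.0337). Scaling to the 75th percentile gave a median difference over all tested probes of log2 0.20, against 0.06, and left Egr1 at 2.48 and Egr2 at 1.83, each to be read against that median. Directions turned for Egr3 with normexp (-0.24) and without GapmeR control replicate 1 (-0.011), and also without GapmeR Ntep replicate 1 (-0.46), the only array on which it was well above background, where it was too dim to be tested, and for Ntep without GapmeR Ntep replicate 2 (0.13). With 1 array left out, Egr3, where tested, ranged from -0.011 to 0.79 and Ntep from -1.06 to 0.13.

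Among lists, passing early-response genes numbered 3 in the report. They numbered 0 without the filter and with the methods' t-test, where 1.13% and 0.923% of all genes passed. With only probes well above background 5 of 45 passed (10.8% of all genes), and with the replicate block 13 of 47 (13.9%). With 1 array left out 0 to 3 passed, where 0 to 4.32% of all genes did. Passing regulators, 2 in the report, numbered 1 (Rps6ka5) with 75th percentile scaling (3.66% of all genes) and a floor of 5 (4.89%). With no filter, the methods' t-test or the variance prior from all probes (5.45% of all genes), 1 passed (Mapk14, in place of both). With normexp (4.77% of all genes) and with only probes well above background (10.8%) 4 passed, and with 1 array left out 0 to 2. Of partners 1 passed with only probes well above background, and 0 to 1 with 1 array left out. Of Egr1 targets 3 passed with the replicate block and 0 with any array left out. The block changed no call of a member. Per1 lost its call with 75th percentile scaling (limma adjusted p = 0.0503), without the filter (0.0524) and with the methods' t-test (0.0601). It also lost it with any 1 array left out. Without GapmeR Ntep replicate 2 (0.0505) Klf2, which was lower, passed in its place. The cause of these shifts was not tested.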
